A study of Drosophila melanogaster with 6 samples.

Results

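RNA of escargot-positive midgut cells that expressed HttQ138 together with CncCRNAi was compared with RNA of cells that expressed HttQ138 alone. The genes described are the protein-coding genes that reached 10 FPKM (fragments per kilobase of transcript, scaled to the mapped fragments of a library) in at least 1 of these 2 libraries, with small RNA genes left out. They number 5255 of the 15603 genes listed. Each gene was ranked by the log2 ratio of FPKM + 1 in CncCRNAi+HttQ138 over FPKM + 1 in HttQ138, and was called higher or lower where that ratio reached 3-fold, 1.58 on the log2 scale. Each condition has 1 library, so differences have no replicate check and no p-value is given. The 95% interval printed with a ratio of FPKM is an exact binomial (Clopper-Pearson) interval on estimated fragments and covers counting error only.

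Both libraries came from mated females aged 7 days that had spent 2 days at 29 °C, about 100 guts a sample. HttQ138 is an aggregation-prone form of human huntingtin with a long polyglutamine tract, fused to mRFP, and was expressed from a UAS transgene by esg::Gal4 together with UAS::GFP. tub::Gal80ts kept the driver off until the shift to 29 °C. The flies of the CncCRNAi+HttQ138 library carried in addition the UAS::CncCRNAi insertion P{KK101639}VIE-260B and had a w1118/y,w1118 first chromosome, so the insertion and the first chromosome of its stock also differ between the libraries. escargot marks intestinal stem cells (ISCs) and enteroblasts (EBs), and the cells were sorted by FACS for GFP, 37452 of them for CncCRNAi+HttQ138 and 16611 for HttQ138. A second pair made in the same way without HttQ138, CncCRNAi (34129 cells) and w1118 (24387 cells), served as a comparison that shares no library with the first. Rpn3RNAi, directed against a proteasome subunit by the same driver, and its control attP2, with no hairpin, were kept at 29 °C for 4 days and were the last 2 libraries. The comparison addresses which genes depend on CncC in cells that carry protein aggregates.

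CncC, encoded by cnc, is the fly homologue of Nrf2, a bZIP transcription factor that binds DNA as a partner of the small Maf protein maf-S. Keap1 holds it in check, and oxidants, electrophiles and autophagy receptors release it. Its known targets include glutathione S-transferases such as GstD1, enzymes of glutathione and thioredoxin metabolism, Keap1 and ref(2)P themselves, and subunits of the proteasome. In fly ISCs CncC is active at rest and restrains proliferation.

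The label of the knockdown was examined first. The level of cnc (FBgn0262975) was 75.6 FPKM in CncCRNAi+HttQ138, 60.7 in HttQ138, 64.4 in CncCRNAi and 63.8 in w1118, and the first was 1.25 times the second (1.14 to 1.36). The gene-level value was thus no lower in either library labelled CncCRNAi. It does not separate the transcripts of cnc, nor transcripts of the gene from those of the hairpin transgene. Insertions of this RNAi collection carry a mini-white marker and sit in a landing site marked with y+. w (white) stood at 716 FPKM in CncCRNAi+HttQ138 and 920.3 in CncCRNAi, against 333 in HttQ138, 219 in w1118, 215 in Rpn3RNAi and 254 in attP2. y (yellow) stood at 3.34 and 4.16 FPKM in the libraries labelled CncCRNAi and at no more than 0.296 in the 4 others. Both marker genes were therefore highest where the labels place the insertion. Of the partners of CncC, maf-S stood at 23.4 FPKM in CncCRNAi+HttQ138, 38.0 in HttQ138, 34.1 in CncCRNAi and 44.1 in w1118. Keap1 was at 20.3, 14.0, 23.1 and 11.7 FPKM in these libraries, higher in both libraries with CncCRNAi than in HttQ138 and w1118. Rpn3RNAi, at 29.0 FPKM, and attP2, at 31.8, were higher still.

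As to the sorted population, esg stood at 309.8 FPKM in CncCRNAi+HttQ138 and 315 in HttQ138, a ratio of 0.984 (0.928 to 1.04). Delta, the Notch ligand by which ISCs are recognised, was near 0 in both, at 0.803 and 1.53 FPKM. Across the 6 libraries the estimated depth ran from 2760000 to 3620000 fragments, with 3620000 in CncCRNAi+HttQ138 and 3250000 in HttQ138. Summed over all markers of a list, visceral muscle (18 genes) stood at 444 FPKM in CncCRNAi+HttQ138 and 491 in HttQ138, hemocytes (10 genes) at 127 and 175, fat body (14 genes) at 185 and 132, Malpighian tubules (11 genes) at 18.8 and 39.5, the ovary (16 genes) at 6.22 and 3.50, and trachea and neurons (10 genes) at 18.6 and 25.3. Tm1 made up most of the visceral muscle sum, at 375 FPKM in CncCRNAi+HttQ138 and 373 in HttQ138. Of the muscle markers under 10 FPKM, Act57B (0.0871 against 5.82), Mlc1 (0.754 against 4.61) and Mlc2 (0.898 against 3.86) were lower in CncCRNAi+HttQ138. Mlp60A (2.24 against 1.08), sls (0.752 against 0.428) and Mlp84B (0.123 against 0) went the other way. Of the 10 hemocyte markers 1, crq, reached 10 FPKM, and the next was srp at 6.40 against 9.49. Hml, NimC1, eater and He were listed at 0 in CncCRNAi+HttQ138 and at no more than 0.587 FPKM in HttQ138. The part of these cell types in the results was not tested. In such bulk RNA fewer cells of a type and less RNA per cell cannot be told apart.

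Of the 5255 genes, 50 (0.951%) were called higher and 100 (1.90%) called lower in CncCRNAi+HttQ138. The remaining 5105 stayed within 3-fold, and 83.2% of all genes stayed within 1.5-fold. The median log2 ratio was 0.13, 3444 of the 5255 genes were above 0, and 0.13 is the level against which the gene lists below are read. For scale, the control libraries attP2 and w1118, which differ in genotype and in days at 29 °C, were 3-fold apart in 2.63% of the same genes. The interval excluded a ratio of 1 for 49 of the 50 genes called higher, the other being too short for an estimate, and for 98 of the 100 called lower. 5 of the higher genes were listed at 0 in HttQ138 and 8 of the lower genes at 0 in CncCRNAi+HttQ138. At the threshold, Obp56a (1.63) and CG14695 (1.59) were the last genes called higher and CG6465 (1.58) and org-1 (1.58) the first left out, both just under it. Among falls, GstE10 (-1.59) and CG17145 (-1.59) were just called, and CG13324 (-1.58) and alphaTry (-1.57) were not.

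**Figure D1:**
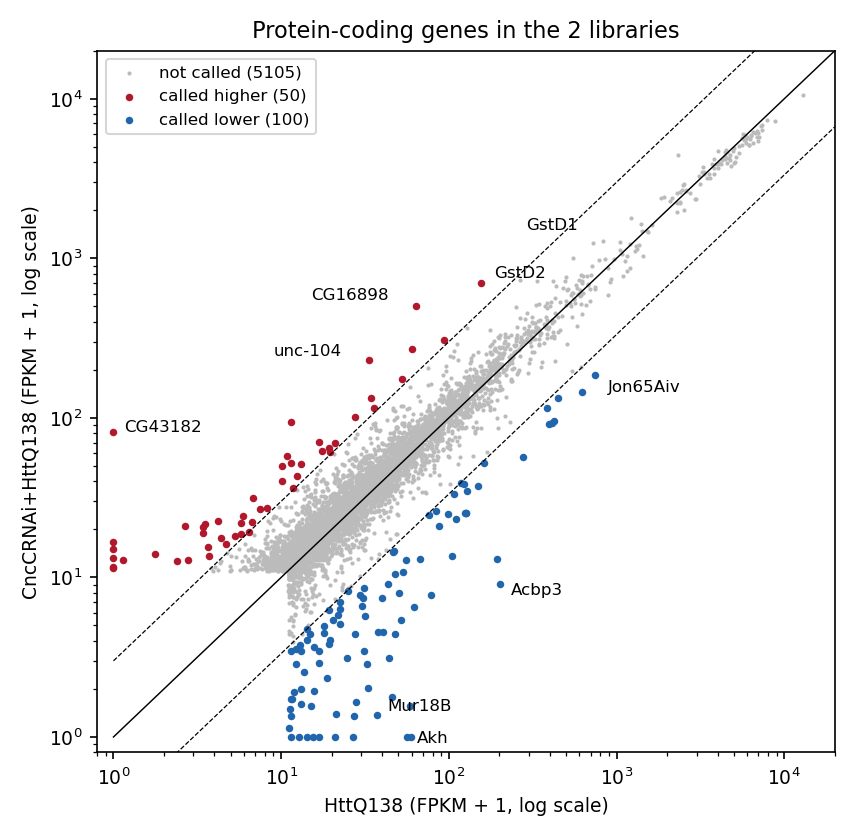
Each point is 1 of the 5255 genes, with FPKM + 1 in HttQ138 on the x axis and in CncCRNAi+HttQ138 on the y axis, both on a log scale. The solid line marks equal values and the dashed lines 3-fold. The 50 genes called higher are red and the 100 called lower blue, and most genes lie along the line.

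The proteasome, which degrades ubiquitinated proteins, was lower as a whole. All 33 subunits of the 26S proteasome on the list were measured, and all 33 were lower in CncCRNAi+HttQ138 than in HttQ138, none by 3-fold. Their median log2 ratio was -0.60, against 0.13 over all genes, and it was -0.73 after centring on that shift. The interval lay below 1 for 32 of them, against 676 of all 5255 genes. The exception was Prosbeta1, at 101 FPKM in CncCRNAi+HttQ138 and 109 in HttQ138. Summed over the 33 subunits, the level was 2457 FPKM in CncCRNAi+HttQ138, 3738 in HttQ138, 2327 in CncCRNAi and 2566 in w1118. HttQ138 was thus the high library of these 4, and it was the highest for 32 of the 33 subunits, against 817 of all 5255 genes. CncCRNAi+HttQ138 was below w1118 for 21 of the subunits, against 2259 of all 5255 genes.

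The 3 parts of the complex had similar medians. The 20S core, which holds the proteolytic sites, had a median log2 ratio of -0.57 (14 subunits), the 19S base, which unfolds substrates, one of -0.63 (10 subunits), and the 19S lid, which removes ubiquitin, one of -0.59 (9 subunits). Rpn13, a ubiquitin receptor of the base, stood at 50.3 FPKM in CncCRNAi+HttQ138, 113 in HttQ138, 38.2 in CncCRNAi and 63.3 in w1118, and its ratio of 0.446 (0.379 to 0.522) was the lowest of the 33. Rpn3, a lid subunit and the target of the study's other knockdown, followed at 33.1, 71.0, 37.7 and 45.5 FPKM, a ratio of 0.466 (0.390 to 0.556). Without HttQ138 the same subunits had a median log2 ratio of -0.13 between CncCRNAi and w1118, with 26 of 33 below 0. Over all genes that median was 0.14, with 1929 of 5255 below 0. The difference between the medians with and without HttQ138 was not tested.

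**Figure D2:**
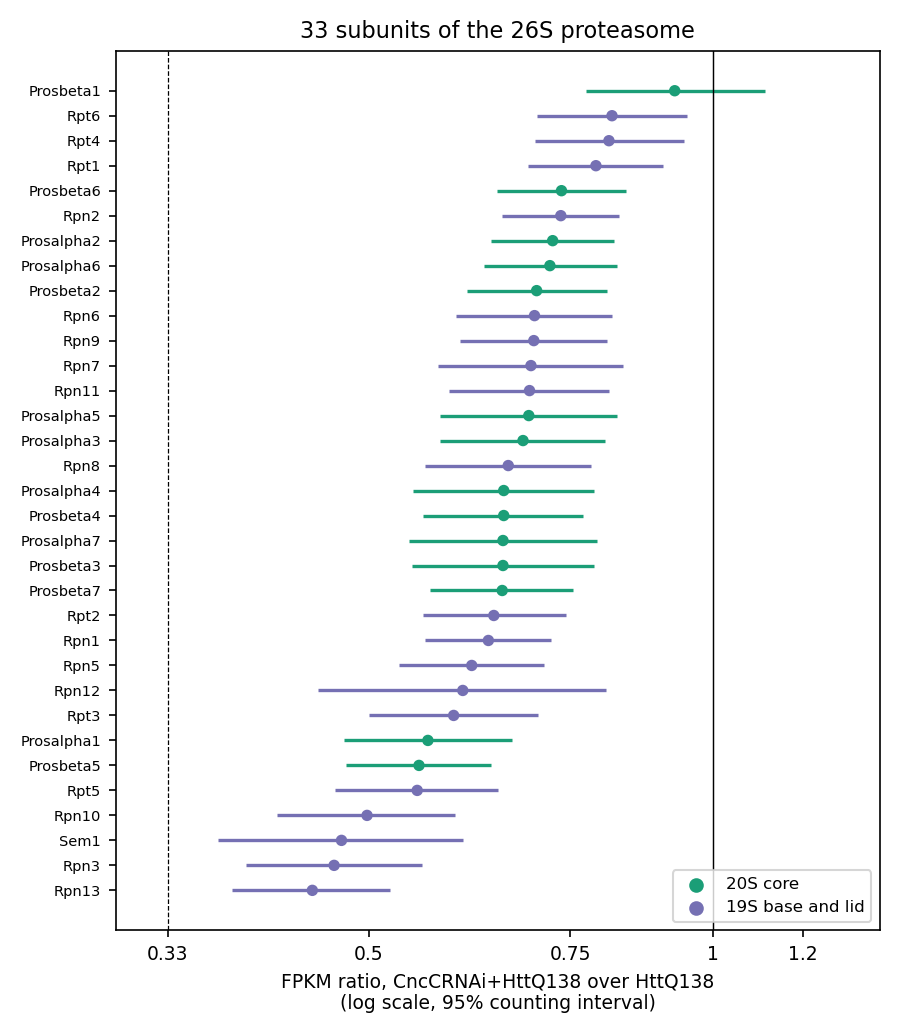
Ratio of FPKM in CncCRNAi+HttQ138 over HttQ138 for the 33 subunits of the 26S proteasome, on a log scale, with horizontal bars for the 95% counting interval. The vertical solid line marks a ratio of 1 and the dashed line a 3-fold lower value. All points lie between 0.446 (Rpn13) and 0.926 (Prosbeta1), and only the bar of Prosbeta1 crosses 1.

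The largest group among the genes called lower was that of the secreted digestive serine proteases, the Jonah proteases and trypsins that enterocytes release into the gut lumen. Of 33 listed, 21 reached 10 FPKM, and 16 of these were called lower and none higher. Their median log2 ratio was -2.09, and the interval lay below 1 for 20, against 676 of all 5255 genes. 7 of the 21 reached 10 FPKM only in HttQ138, which fixed their direction, and the median was -1.73 over all 33. Jon65Aiv stood at 184 FPKM in CncCRNAi+HttQ138, 745 in HttQ138, 97.9 in CncCRNAi and 129 in w1118. For Jon65Aiii the 4 levels were 145, 619, 94.6 and 95.1 FPKM. In both, HttQ138 was far above the 3 other libraries of 2 days, and CncCRNAi+HttQ138 lay nearest to it. Jon65Ai had the largest fall, from 44.5 FPKM in HttQ138 to 0.778, which is 57.2-fold lower (16.0 to 436).

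Jon99Fi (76.8 against 6.80 FPKM, 11.3-fold lower) and Jon99Fii (12.7 in CncCRNAi+HttQ138, 8.16-fold lower) came next. The trypsins gammaTry, deltaTry, CG30031 and CG30025 stood at 125, 123, 125 and 109.7 FPKM in HttQ138 and at 22.4 to 24.5 in CncCRNAi+HttQ138. They are near-identical copies among which reads can be split, so their values are not separate measurements. epsilonTry was the least changed, at 50.4 FPKM against 57.7. Summed over all 33 listed proteases the level was 1144 FPKM in CncCRNAi+HttQ138, 4196 in HttQ138, 778 in CncCRNAi and 921 in w1118. These proteases are products of enterocytes, and the HttQ138 library was made from the fewest cells of all 6. In Rpn3RNAi, made from 34986 cells, the same sum was 15942 FPKM, and in attP2, made from 62921 cells, it was 529.6. The part of admixed enterocytes in the protease levels was not tested.

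Other products of differentiated gut cells did not all go the same way. The 4 maltases and amylases measured were lower by at most 0.89 on the log2 scale and the 5 genes of lipid digestion and sterol handling by at most 0.91, with medians of -0.62 and -0.61 and none called. Of these 5 lipid and sterol genes, 3 reached 10 FPKM only in HttQ138, which fixed their direction. The 4 enterocyte and midgut transcription factors had a median of 0.06. Genes of the smooth septate junction and brush border, which seal and line enterocytes, were above 0 in all 11 cases and above the median of all genes in 9, with a median log2 ratio of 0.39 and none called. hoka, a membrane protein of that junction, was 1.62-fold higher (1.41 to 1.87), at 289.6 FPKM against 179, and its partner mesh stood at 55.7 against 37.7. Fas3, an adhesion protein, was the highest of the list, at 40.5 against 15.2 FPKM.

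**Figure D3:**
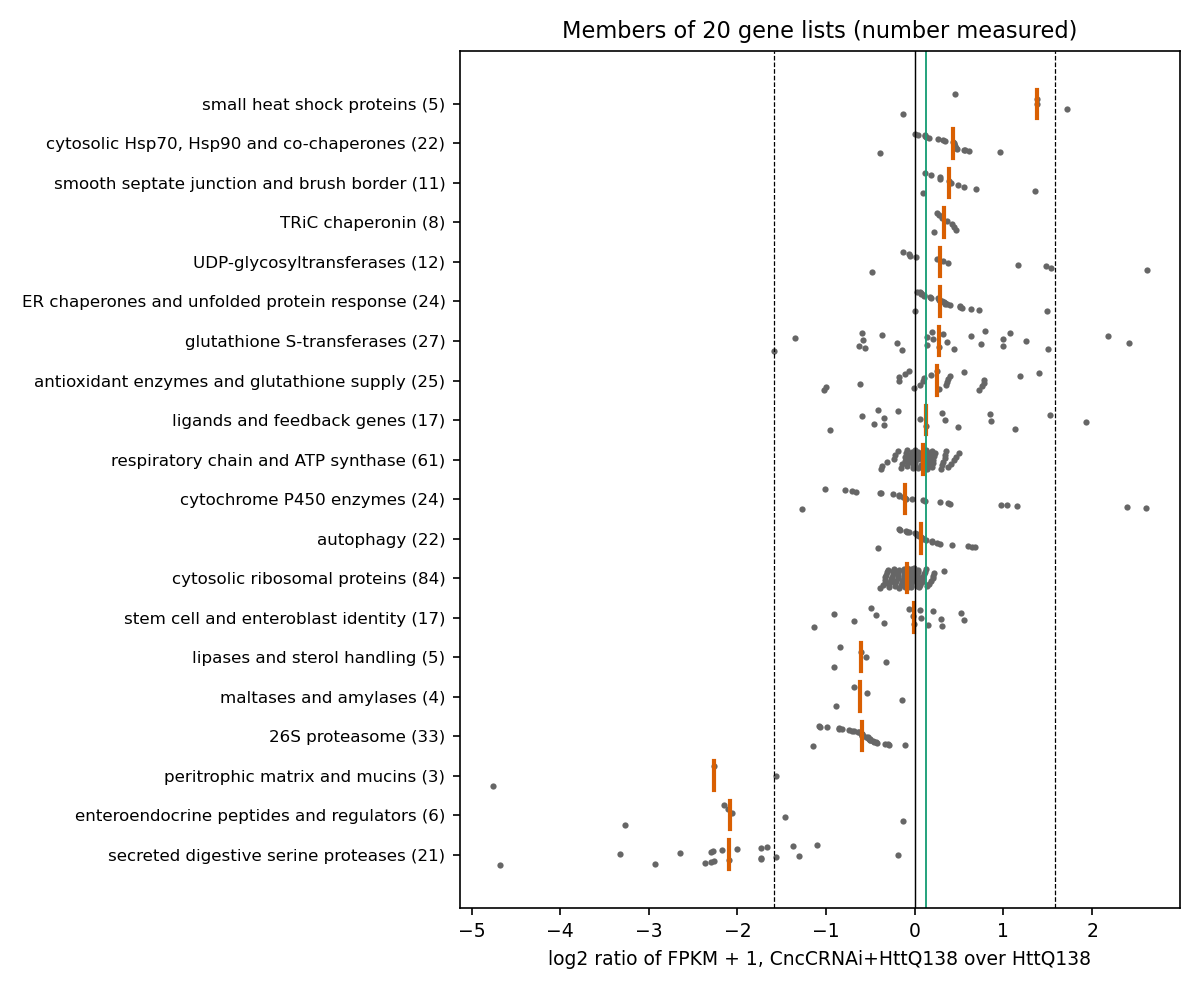
Log2 ratio of FPKM + 1 in CncCRNAi+HttQ138 over HttQ138 for the measured members of 20 gene lists, 1 point per gene, with an orange bar at each list's median (number measured in parentheses). The green line is the median of all genes (0.13) and the dashed lines mark 3-fold. Digestive proteases, enteroendocrine peptides and mucins lie far to the left, the proteasome forms a narrow group at -0.60, and the small heat shock proteins lie to the right.

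Peptide hormones of enteroendocrine cells made a second group. Of 18 genes listed, 6 reached 10 FPKM in either library, and 3 of these (AstC, CCHa2 and Tk) did so only in HttQ138, which fixed their direction. Of the 6, 4 were called lower and the median log2 ratio was -2.09, against -1.33 with a minimum of 1 FPKM and -0.81 over all 18. AstC, which encodes allatostatin C, stood at 5.48 FPKM in CncCRNAi+HttQ138, 61.3 in HttQ138, 7.73 in CncCRNAi and 17.9 in w1118, 11.2-fold lower than in HttQ138 (7.12 to 18.5). Orcokinin stood at 19.9, 86.0, 32.6 and 56.8 FPKM. CCHa2 fell from 21.5 FPKM in HttQ138 to 4.09. Tachykinin (Tk) stood at 2.66, 14.8, 12.1 and 25.2 FPKM in the 4 libraries, so that w1118 and not HttQ138 was the highest. NPF, a neuropeptide F, likewise stood at 60.3, 167, 198 and 396 FPKM, 2.77-fold lower than in HttQ138 and not called. For both, CncCRNAi+HttQ138 was the lowest of the 4. ITP, the ion transport peptide, differed little (43.8 against 48.0 FPKM). pros, the transcription factor that defines enteroendocrine cells, was near 0 in both libraries, at 0.335 and 0.757 FPKM. The sum over the list was 149 FPKM in CncCRNAi+HttQ138, 428 in HttQ138, 313 in CncCRNAi and 544 in w1118, and the part of admixed enteroendocrine cells was not tested.

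The largest falls of all included a second hormone source. Akh, the adipokinetic hormone of the corpora cardiaca, stood at 55.1 FPKM in HttQ138, was listed at 0 in CncCRNAi+HttQ138, w1118, Rpn3RNAi and attP2, and stood at 2.26 in CncCRNAi. It was therefore a transcript of the HttQ138 library almost alone. IM33, an immune-induced peptide, stood at 58.5 FPKM in HttQ138 and was listed at 0 in CncCRNAi+HttQ138. Its values in the other libraries were 23.3 in CncCRNAi, 4.56 in w1118, 66.4 in Rpn3RNAi and 4.30 in attP2. CG14292 followed, at 0.557 FPKM in CncCRNAi+HttQ138 and 57.4 in HttQ138.

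Proteins of the mucus and peritrophic matrix, which line the gut lumen, were also among the falls. Mur18B stood at 0.375 FPKM against 36.2, 96.4-fold lower (26.2 to 808), and Muc11A, a mucin, at 0.344 against 26.1, 75.8-fold lower (34.3 to 211). Peritrophin-15a stood at 8.06 against 42.6 FPKM. Mur18B, Peritrophin-15a and Mur29B (7.86 against 25.2 FPKM) were the listed genes of this kind that passed the filter, each through HttQ138 alone, which fixed their direction. Acbp3, an acyl-CoA binding protein, was the most abundant of the 20 largest falls, at 8.05 FPKM in CncCRNAi+HttQ138, 202 in HttQ138, 1.13 in CncCRNAi and 5.80 in w1118, 25-fold lower (12.3 to 59.6). CG14645 stood at 12, 193, 25.8 and 98.6 FPKM. HttQ138 was the highest of these 4 libraries for each of these genes.

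The rest of the 20 largest falls were CG14075, CG34301, CG8299, CG13309, CG4783 and the chemosensory-protein family gene Phk-3, all 6 listed at 0 in CncCRNAi+HttQ138 and at 10.5 to 25.8 FPKM in HttQ138, and CG34324, CG6409, CG3906, CG12057, CG6839 and sloth1. CG34324 stood at 0.661 FPKM against 26.8, CG6409 at 1.04 against 32.0 and CG6839 at 1.87 against 31.3. sloth1 (13.2 FPKM in HttQ138) overlaps another gene, and its values in the other libraries, below the level of 1 fragment, are those of a split between overlapping genes, so its fall is uncertain. Outside the naming rule, and chosen after their values were seen, the alcohol dehydrogenase Adh (3.45 against 47.0 FPKM), the acid protease gene Bace (89.9 against 397), the chitinase-like growth factor gene Idgf4 (0.984 against 12.1), the lysosomal mannosidases LManII (3.43 against 13.8) and LManVI (2.82 against 18.3) and the glutamine synthetase Gs2 (0.496 against 10.3) were also called lower. MtnC, a metallothionein, was called lower at 2.45 against 15.9 FPKM, but its 95% interval included 1, as did that of Dso2, an antifungal peptide.

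Genes called higher in CncCRNAi+HttQ138 were fewer and more mixed. CG43182 was the first of them, at 80.3 FPKM in CncCRNAi+HttQ138 and 59.9 in CncCRNAi, and it was listed at 0 in the 4 other libraries. CG16898 stood at 498 FPKM in CncCRNAi+HttQ138, 62.3 in HttQ138, 386 in CncCRNAi and 21.1 in w1118, 7.99-fold higher than in HttQ138 (6.99 to 9.18). CG3397 stood at 92.7, 10.5, 60.3 and 4.55 FPKM, 8.85-fold higher (6.25 to 12.9). All 3 were highest in the 2 libraries with CncCRNAi. The same holds for CG7130, Klp54D, a kinesin-like motor, CG17549 and Ote, which encodes the inner nuclear membrane protein Otefin. Ote stood at 48.7, 9.16, 92.5 and 7.94 FPKM, and Klp54D at 11.9, 0.145, 11.2 and 0.

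unc-104, the kinesin that moves synaptic vesicle precursors, showed another pattern. It stood at 228 FPKM in CncCRNAi+HttQ138 and 32.6 in HttQ138, 7.00-fold higher (6.49 to 7.55), but at 151 in CncCRNAi and 233 in w1118, so that HttQ138 was the low library of the 4. PIG-M, an enzyme of GPI anchor synthesis, stood at 10.5 FPKM in CncCRNAi+HttQ138, below 1 fragment in HttQ138, 2.64 in CncCRNAi and 5.86 in w1118, and CG5267 at 21.7, 3.22, 17.3 and 26.1. The HttQ138 value of PIG-M, 0.000520 FPKM, is a fraction of a fragment like the low values of sloth1, so its rise is uncertain. Genes of the male accessory gland and seminal fluid were also among the 10 largest rises. Acp53C14c stood at 12.2 FPKM in CncCRNAi+HttQ138, 0 in HttQ138, 19.1 in CncCRNAi and 9.71 in w1118, and Sfp53D at 13.1, 0.760, 8.62 and 5.61. Acp98AB stood at 10.6 FPKM in CncCRNAi+HttQ138 and at 0 in every other library, with a transcript too short for an interval. CG14302 and CG42392, at 15.6 and 14.0 FPKM in CncCRNAi+HttQ138 and 0 in HttQ138, reached 5.72 and 16.4 FPKM in w1118. Estimated fragments were 17 against 0 for Acp53C14c, 26 against 1 for Sfp53D, 7 against 0 for CG14302 and 25 against 0 for CG42392. Of the ranked pair, PIG-M, CG5267, Acp53C14c, Sfp53D, Acp98AB, CG14302 and CG42392 reached 10 FPKM only in CncCRNAi+HttQ138, which fixed their direction. Of the 50 genes called higher, HttQ138 was the lowest of the 4 libraries of 2 days for 22, against 1956 of all 5255, a count the choice of these genes favours.

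The yolk protein genes Yp1, Yp2 and Yp3, products of the fat body and ovary of females, were called higher. Of the ranked pair, all 3 reached 10 FPKM only in CncCRNAi+HttQ138, which fixed their direction. Yp1 stood at 23.2 FPKM in CncCRNAi+HttQ138, 4.96 in HttQ138, 32.6 in CncCRNAi and 10.3 in w1118, and at 225 in Rpn3RNAi and 75.9 in attP2. They were 3 of the 5 measured markers of the fat body. The other 2 measured, FASN1 (90.7 against 84.1 FPKM) and CG9547 (19 against 21.9), were within 1.5-fold, and Fbp2, Obp99b and Lsp1alpha were listed at 0 in both libraries.

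Chaperones were on the whole above the shift. The small heat shock proteins, which hold unfolded proteins in solution, had a median log2 ratio of 1.38 over the 5 of 12 that reached 10 FPKM, with 1 called higher and none lower. Hsp26 stood at 308 FPKM in CncCRNAi+HttQ138, 92.6 in HttQ138, 475 in CncCRNAi and 70.5 in w1118, 3.33-fold higher than in HttQ138 (2.89 to 3.84). Hsp23 stood at 291, 111, 616 and 90.8 FPKM, a ratio of 2.63 (2.28 to 3.04), and Hsp22 at 90.5, 34.2, 136 and 28.2. In these 4 libraries the levels of all 3 were highest in CncCRNAi and second in CncCRNAi+HttQ138. Hsp27 did not share the rise, at 43.6 against 47.9 FPKM. The median of the list rests on few genes: it was 0.90 with the members at 1 FPKM or more and 0.28 with all 12.

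Among the 22 cytosolic chaperones of the Hsp70 and Hsp90 systems measured, 21 were above 0 and 16 above the median of all genes. None was called, and the median was 0.43. Hsp68, an inducible Hsp70, stood at 53.4 FPKM against 27.1, a ratio of 1.97 (1.65 to 2.36), and its level in CncCRNAi was 207. The Hsp90 gene Hsp83 stood at 653 FPKM in CncCRNAi+HttQ138, 480.0 in HttQ138, 847 in CncCRNAi and 243 in w1118. DnaJ-1, an Hsp40 co-chaperone, was the exception below 0, at 36.7 against 48.3 FPKM. All 8 subunits of the TRiC chaperonin, which folds actin and tubulin, were above 0, between 0.22 and 0.47. Each had an interval above 1, as had 1734 of all 5255 genes. The 24 genes of the ER chaperones and unfolded protein response had a median of 0.29, with 17 above the median of all genes. The highest was the nucleotide exchange factor Sil1 at 10 against 2.93 FPKM.

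Genes of detoxification and redox metabolism, the textbook targets of CncC, did not fall as a group. Of 27 measured glutathione S-transferases, 18 were above 0, the same number above the median of all genes, and 9 below 0, 2 were called higher and 1 lower, and the median was 0.27. GstD1, the usual reporter gene of CncC activity, stood at 1249 FPKM in CncCRNAi+HttQ138, 723 in HttQ138, 917 in CncCRNAi and 756 in w1118. The ratio to HttQ138 was 1.73 (1.63 to 1.84), higher and not lower. In Rpn3RNAi GstD1 stood at 841 FPKM and in attP2 at 1142. GstD2 stood at 704, 155, 268 and 98.0 FPKM, 4.55-fold higher than in HttQ138 (4.01 to 5.18). GstD5 stood at 57.0, 9.82, 57.5 and 12.3 FPKM, 5.81-fold higher (3.69 to 9.56). GstD genes are neighbouring copies, and reads can be split among them. On the other side, GstE10 stood at 3.73 against 13.3 FPKM and was called lower, and GstE5 stood at 3.41 against 10.3 and was not.

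Of 25 measured antioxidant and glutathione supply genes, 17 were above 0 and 14 above the median of all genes, none was called, and the median was 0.25. Trxr1, the thioredoxin reductase that also serves glutathione in flies, stood at 257 FPKM in CncCRNAi+HttQ138, 149 in HttQ138, 254 in CncCRNAi and 126 in w1118. Both subunits of the enzyme that limits glutathione synthesis were higher, Gclc at 48.3 against 27.7 FPKM and Gclm at 88.5 against 53.1. These 3 were higher in both libraries with CncCRNAi than in HttQ138 and w1118. They were named after their values were seen. By the rule, Prx6c (36.4 against 13.2 FPKM) and the sulfiredoxin Srx (30.1 against 12.6) were the highest, and the haem oxygenase Ho (10.4 against 21.8) and the extracellular dismutase Sod3 (6.55 against 14.3) the lowest. ref(2)P, the fly p62, stood at 280.1, 174, 269 and 179 FPKM, a ratio of 1.61 (1.5 to 1.73). Its level was 637 FPKM in Rpn3RNAi and 267 in attP2.

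Cytochrome P450 enzymes were divided, 10 above 0 and 14 below of 24 measured, with a median of -0.10. Cyp6g1, known for insecticide resistance, was called higher at 19.8 FPKM against 2.40, and stood at 13.5 in CncCRNAi and 0.341 in w1118. Cyp6t3 was called higher too, at 11.6 against 1.39 FPKM. Cyp6a13 was the lowest, at 56.8 against 138. Of 12 UDP-glycosyltransferases, which conjugate sugars to small molecules, 8 were above 0 and Ugt37C2 (20.6 against 2.50 FPKM) was called higher.

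The secreted signals of the gut were higher or lower by ligand. Of 17 measured ligands and feedback genes of the EGFR, JAK-STAT, FGF, Wnt and BMP pathways, 10 were above 0 and 7 below, with a median of 0.13. upd2, a ligand of the JAK-STAT pathway, was called higher at 21.0 FPKM in CncCRNAi+HttQ138, 4.78 in HttQ138, 69.2 in CncCRNAi and 8.68 in w1118. Pvf2, a PDGF- and VEGF-related ligand, stood at 26.7 against 8.65 FPKM, 3.09-fold higher in plain FPKM (2.28 to 4.25) and under the threshold on the scale used. aos, a feedback inhibitor of EGFR, stood at 10.8 against 21.8 and the FGF ligand gene pyr at 8.49 against 13.3. upd2 and Pvf2 were the 2 highest of this list and were higher in both libraries with CncCRNAi. trbl, a pseudokinase that promotes the loss of the mitotic activator String, was called higher at 132 FPKM in CncCRNAi+HttQ138, 33.3 in HttQ138, 283 in CncCRNAi and 29.5 in w1118.

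Identity genes of ISCs and EBs went both ways. Of 17 measured, 8 were above 0 and 9 below, 6 were above the median of all genes, none was called, and the median was -0.01. The interval lay above 1 for 5 of the 17 and below 1 for 6, against 1734 and 676 of all 5255 genes. Of the 11 Enhancer of split genes listed, targets of Notch in EBs, 4 reached 10 FPKM and all 4 were below 0. Of the 7 others, E(spl)m2-BFM (3.42 against 0.380 FPKM), E(spl)m8-HLH (1.62 against 0) and E(spl)m6-BFM (1.67 against 1.24) were higher. E(spl)malpha-BFM stood at 227 FPKM in CncCRNAi+HttQ138, 428 in HttQ138, 579.9 in CncCRNAi and 824 in w1118, a ratio of 0.529 (0.469 to 0.597). Sox100B (318 against 215 FPKM) and the Notch inhibitor numb (26.3 against 18.1) were the highest. dap, the p21-like inhibitor of Cyclin E and Cdk2, stood at 13.8 FPKM in CncCRNAi+HttQ138 and 14.4 in HttQ138, a ratio of 0.956 (0.732 to 1.25), and at 27.2 in CncCRNAi and 30.5 in w1118. Atg8a, the fly LC3, stood at 308 against 289 FPKM, a ratio of 1.07 (0.978 to 1.16), and at 423 and 532 in the 2 libraries without HttQ138. For both genes, the libraries with HttQ138 were the lower ones of the 4, and the difference between these 2 lay within counting error.

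The 13 cyclins and mitotic regulators measured had a median of 0.27 and the 10 genes of DNA replication and nucleotide supply one of 0.30, with none called in either. RPA1, a single-strand DNA binding protein of replication, was the highest, at 117 FPKM against 52.6, a ratio of 2.22 (1.96 to 2.53), and at 166 in CncCRNAi and 38.1 in w1118. CycD was near equal (15.9 against 16.7 FPKM). No gene was called in the large groups of general metabolism. The median was -0.09 over 84 cytosolic ribosomal proteins, 0.07 over 75 mitochondrial ribosomal proteins, 0.09 over 61 genes of the respiratory chain, 0.27 over 28 of ribosome biogenesis, 0.07 over 22 of autophagy, 0.09 over 15 of glycolysis and -0.10 over 17 of the vacuolar ATPase. Of the cytosolic ribosomal proteins 7 of 84 lay above the median of all genes, and of the vacuolar ATPase genes 2 of 17. In glycolysis Ldh, lactate dehydrogenase, stood highest at 261 FPKM against 106, a ratio of 2.47 (2.20 to 2.77). Of the 7 immune effectors measured none was called and the median was -0.10, and of 9 iron and metal binding genes MtnC alone was called.

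The pair without HttQ138 gave the difference between CncCRNAi and w1118 in libraries that the ranking did not use. As in the first pair, the insertion and the first chromosome of its stock also differ. Their part was not tested, and cnc stood at 64.4 FPKM in CncCRNAi and 63.8 in w1118. Over the 5255 genes, 3.86% were called higher and 0.571% called lower in CncCRNAi against w1118. Of all 5255, 3322 were above 0 in this comparison, and the median log2 ratio was 0.14. Of the 50 genes higher with HttQ138, 34 (68.0%) were called higher without it as well, none was called lower, 43 were above 0, and their median log2 ratio was 2.52. CG16898 (4.13), Klp54D (3.61), Cyp6t3 (3.59), CG3397 (3.46), Ote (3.39), trbl (3.22), upd2 (2.86) and Hsp26 (2.73) were among them, and of the 6 below 0 unc-104 had -0.62. Of the 100 genes lower with HttQ138, 14 (14%) were called lower without it and 15 (15%) were called higher, 40 were above 0, and the median was -0.23. With a pseudocount of 5 FPKM in place of 1, 18 genes were higher in both comparisons, 4 lower in both and 1 lower with HttQ138 and higher without it. With a minimum of 20 FPKM, 13 were lower with HttQ138 and higher without it. Among the digestive proteases 4 of the 21 were called lower in CncCRNAi against w1118, with a median of -0.67, and Jon25Biii (5.18 against 43.0 FPKM) and thetaTry (1.30 against 13.8) had the largest falls. Pearson's r between the log2 ratios of the 2 comparisons was 0.42 across genes, which are not independent and share the depth of each library.

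Counted over all 6 libraries, both with CncCRNAi stood above the 4 others for 16.6% of the genes and below them for 3.92%. The ranking used 1 library of each side, so these counts overlap with it in part. Among the 50 higher genes 29 stood above the 4 others, and among the 100 lower genes 25 stood below. Between CncCRNAi+HttQ138 and CncCRNAi, the median log2 ratio was -0.05 over the higher genes and -0.22 over the lower ones, against -0.09 over all genes. Single genes differed more, such as upd2 (21.0 against 69.2 FPKM) and IM33 (0 against 23.3).

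**Figure D4:**
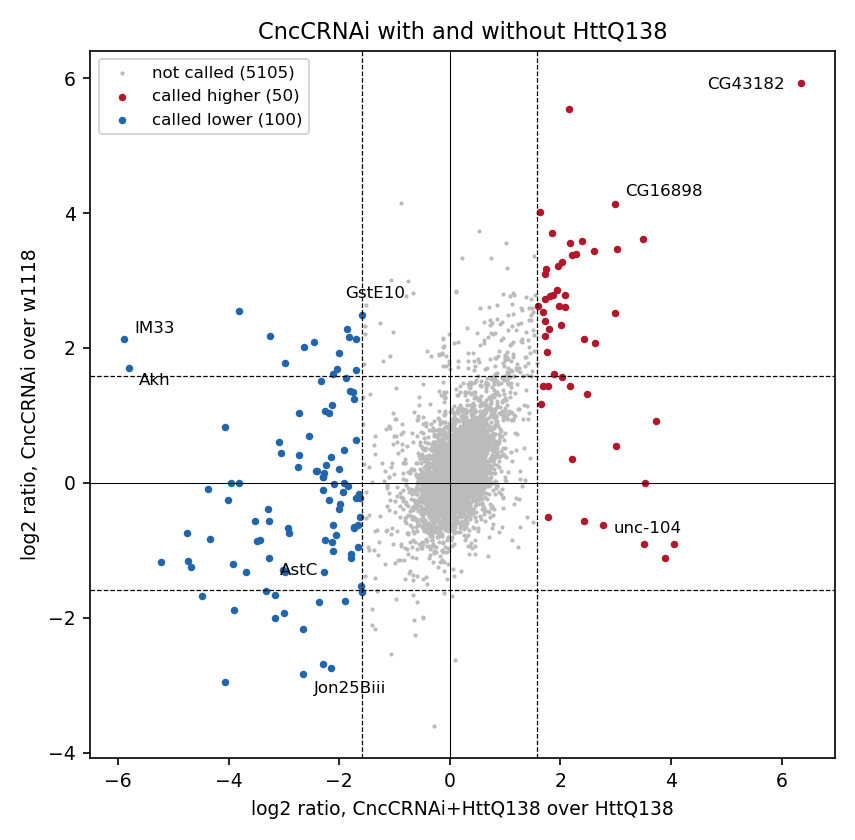
Log2 ratio of FPKM + 1 for the 5255 genes, CncCRNAi+HttQ138 over HttQ138 on the x axis and CncCRNAi over w1118 on the y axis, with dashed lines at 3-fold. Of the 50 red genes (called higher with HttQ138) 34 lie above the upper line, whereas the 100 blue genes (called lower) spread over both sides of 0 on the y axis, 14 below the lower line and 15 above the upper one.

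The lower genes were marked by their level in HttQ138. HttQ138 was the highest of the 4 libraries of 2 days for 98 of the 100, against 817 of all 5255, a count the choice of these genes favours. Their median log2 ratio of CncCRNAi+HttQ138 over w1118, a library the ranking did not use, was -0.29, against 0.08 over all genes. CncCRNAi+HttQ138, which the choice of the genes did use, was below w1118 for 54 of them, against 2259 of all 5255.

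Rpn3RNAi and attP2, which share no library with the ranked pair, gave a further readout. Over all genes 3.14% were called higher in Rpn3RNAi against attP2 and 1.05% lower. Of the 100 genes lower in CncCRNAi+HttQ138, 77 were called higher in Rpn3RNAi and 1 lower, with a median log2 ratio of 3.23, whereas the 50 higher genes had 9 called higher, 3 called lower and a median of 0.13. Jon65Aiv stood at 2409 FPKM in Rpn3RNAi and 71.9 in attP2, Bace at 1797 and 68.2, CG18180 at 364 and 29.5, and Mur18B at 58.4 and 15.7. AstC, at 33.4 and 21.7, and Akh, listed at 0 in both, were not among the 77. Summed over the 33 proteasome subunits, the level was 9788 FPKM in Rpn3RNAi and 3671 in attP2.

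**Figure D5:**
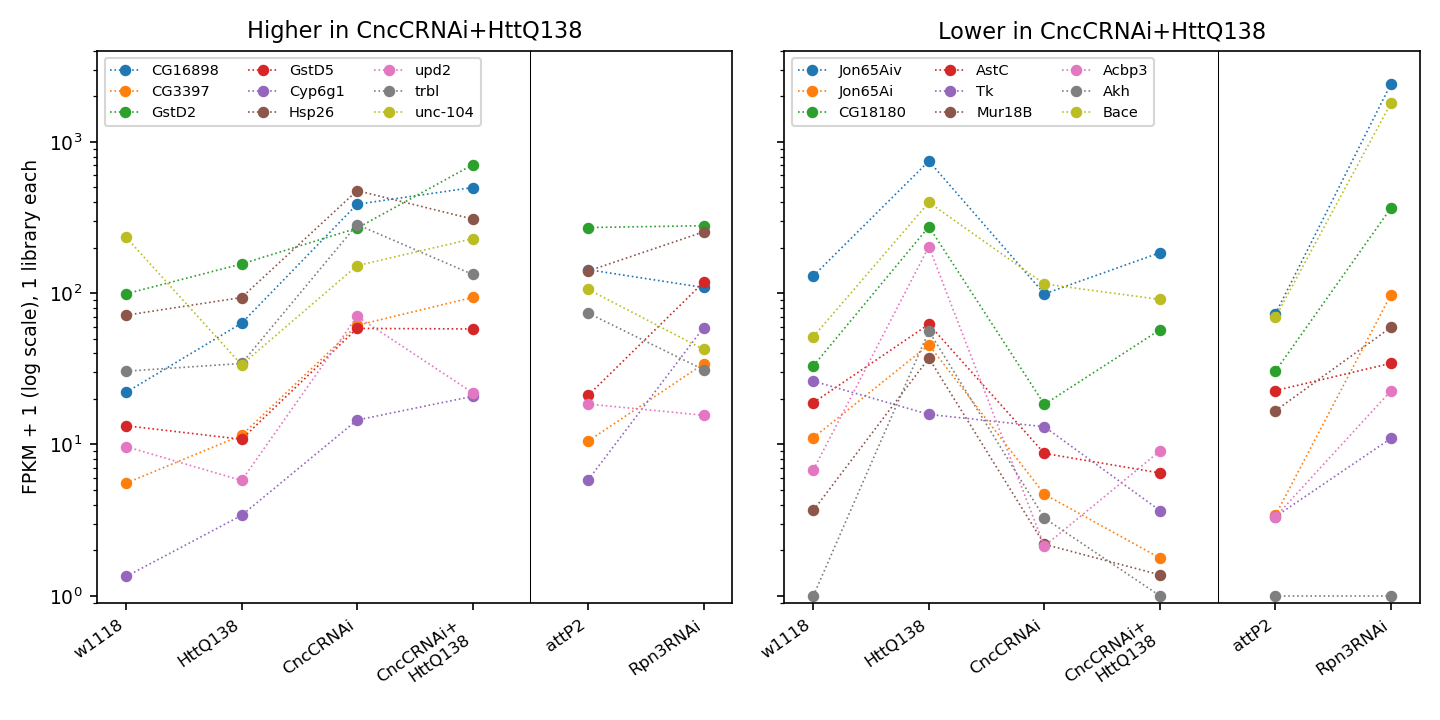
FPKM + 1 on a log scale in the 6 libraries, 1 point per library, for 9 genes called higher (left) and 9 called lower (right) in CncCRNAi+HttQ138. A vertical line separates the libraries of 2 and of 4 days at 29 °C. Most of the higher genes are high in both libraries with CncCRNAi, with unc-104 high in w1118 too, while the lower genes, apart from Tk, peak in HttQ138 among the libraries of 2 days and, apart from Akh, are higher in Rpn3RNAi than in attP2.

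In chromosome arm, which the ranking did not use, 16 of the 50 higher genes (32.0%) and 26 of the 100 lower genes (26%) lay on 2R, against 21.5% of all genes. The shares on 3R, the arm that holds cnc, were 26% and 23%, against 24.4% of all. Transcripts under 400 nucleotides, for which FPKM is least certain, made up 5 of the 50 higher and 5 of the 100 lower genes and 37 of all 5255.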

How the data were processed

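FPKM values per gene, 1 column per library, were used as deposited. The authors sequenced 150-base paired-end reads on a MiSeq, mapped them to release 5.75 of the fly genome and computed FPKM with the Tuxedo suite, whose versions are not given in the sources used here. Biotype, transcript length and chromosome arm came from annotation 115 of release 6. Of 15603 identifiers, 14927 matched directly, 220 by symbol, 300 by synonym, and 156 did not. No coordinates or sequences are printed.

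A pseudocount of 1 FPKM was added before ratios. Depth was estimated from the steps of low FPKM values in 5492 genes with a single transcript, with lengths reduced by 150 nucleotides, and 83.5% to 86.7% of low values fell within 0.1 of a whole fragment. Fragments of genes of at least 200 nucleotides gave the intervals (scipy). The procedure was tested on simulated fragments. The members and the 36 gene lists were chosen with earlier results of these data known. Named genes were cnc, its partners and the genes the study names, the 20 largest rises and 20 largest falls, the 2 highest and 2 lowest of each list, and genes called in opposite directions with and without HttQ138. Each library came from pooled guts.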

Additional observations from a re-analysis of the deposited data

Results flagged for a closer look

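15 genes were called lower in CncCRNAi+HttQ138 against HttQ138 and higher in CncCRNAi against w1118, and none the other way round. The contrast between backgrounds was not tested, as each side holds 1 library. The log2 ratio with HttQ138, followed by that without, was -5.89 and 2.13 for IM33, -5.81 and 1.70 for Akh, -3.81 and 2.55 for CG12057, -3.26 and 2.18 for CG31086, and -2.98 and 1.77 for CG4363. It was -2.63 and 2.01 for CG12780, -2.45 and 2.09 for CG8952, -2.11 and 1.62 for CG8661, -2.05 and 1.69 for CG31343, and -2.0 and 1.93 for CG10911. It was -1.86 and 2.28 for the antifungal peptide gene Dso2, -1.82 and 2.16 for CG14499, -1.70 and 2.13 for CG5506, -1.69 and 1.67 for the cold-induced gene Fst, and -1.59 and 2.49 for GstE10. In w1118, CG10911 stood highest of these genes at 21.6 FPKM, and Akh, CG14499 and Dso2 were listed at 0. In CncCRNAi against w1118, Akh rested on 3 against 0 estimated fragments, Dso2 on 1 against 0 and CG12780 on 8 against 1. The intervals of these genes in that comparison included 1. Where the interval had to exclude 1, 12 of the 15 remained.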

How the results depend on the processing

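No paired analysis was possible because each condition has 1 library, and for the same reason no replicate was left out. The planned search of promoters for motifs was not run, since no promoter sequences were used here.

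Of 50 genes called higher and 100 called lower, a pseudocount of 5 FPKM left 30 and 62, a minimum of 20 FPKM 32 and 65, a minimum of 1 FPKM or no filter 102 and 214, and a 2-fold threshold 176 and 165. A 4-fold threshold left 29 higher. Of the 34 genes higher in both backgrounds, a pseudocount of 5 left 18, a 2-fold threshold 134 and a 4-fold threshold 17. The 14 lower in both became 4 with a pseudocount of 5, 24 with none, 38 at 2-fold and 6 at 4-fold. The 15 of opposite direction became 1 with a pseudocount of 5, 27 with 0.1 or none, 23 with a minimum of 1 FPKM or no filter, 36 at 2-fold and 5 at 4-fold. The median of the enteroendocrine peptides was -1.33 with a minimum of 1 FPKM and -0.81 with no filter, and 2 of them were called lower with a pseudocount of 5. That of the small heat shock proteins was 0.90 and 0.28 under these filters, and that of the ribosomal proteins -0.22 after centring. Of the 8 list medians recomputed, that of ISC and EB identity changed from -0.01 to 0.03 with a minimum of 1 FPKM and was 0.00 after rescaling, the others kept their sign, and of 176 named genes 8 changed sign, all under centring on the median of all genes. Leaving out transcripts under 400 nucleotides and keeping only direct identifier matches, both added after the data were seen, kept every count within 1.5 times. With 1 library a side, the spread between flies and sorts is unknown.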
